A study of Rattus norvegicus with 8 samples.

Results

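Transcripts of the heat shock proteins and the DnaJ co-chaperones were measured in 8 rat retinas on 4 two-colour Agilent arrays. Members were the probes whose gene symbol on the array starts as Hsp90, Hspa, Hspb or Dnaj a, b or c with a number, together with Hspd1, Hspe1 and Hsph1. They came to 68 of the 26334 gene names on the array, covered by 87 probes. The retinas came from female Lister Hooded rats 8 weeks old. In 4 animals (ONC) the right optic nerve was crushed with forceps held shut 3 mm behind the optic disc for 10 s, and in 4 sham-operated animals (CTR) the same surgery was done without closing the forceps. Each retina, taken 2 weeks later, was a sample of its own, and the question was which genes differ in level between the injured and the sham-operated retinas.

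By the labels, a CTR and an ONC retina with one number share an array, with Cy5 carrying all CTR and Cy3 all ONC samples, so that dye and condition cannot be told apart. The methods of the study arrange the arrays and dyes in another way. Retinal ganglion cells, whose axons form the optic nerve, are known to die after a crush, and their transcripts serve as a check of the labels. The median of 10 ganglion cell markers, each set against its own mean over the 8 channels on the log2 scale, was -1.52, 1.16, -1.14 and -0.97 in channels labelled CTR (1 to 4). In the channels labelled ONC (1 to 4) it came to 1.24, 1.24, 1.37 and -1.18. The markers were thus high in 3 ONC channels and 1 CTR channel, which goes against the labels, and CTR2 and ONC4 stood apart from the other channels of their label. In what follows CTR and ONC name channels by their labels, a direction is one between labels, and the main counts and some members are also given without CTR2 and ONC4, an alternative added after the data were seen. Of 15 rod and cone markers, 13 were measured in all 8 channels, as retina would have it.

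Heat shock proteins keep other proteins folded. Hsp70 and Hsp90 bind unfolded clients and use ATP to release them, DnaJ proteins hand clients to Hsp70 and speed its ATP use, the small heat shock proteins hold unfolding proteins without ATP, and Hsp60 with Hsp10 forms a folding chamber in mitochondria. Several of them, Hspb1 and the inducible Hsp70 among them, are known to be induced in the retina by heat, ischaemia or nerve injury through heat shock factors.

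A spot was kept where its foreground reached 2 times the local background in all 8 channels and no outlier flag was set. This left 63 of the 68 members among 16307 genes tested. Dnajb7, Dnajc5b and Dnajc5g were not well above background in any channel. Dnajb8 was well above background in 3 of the 8 channels, and its foreground was 1.54 to 1.75 times the background in the CTR channels. Dnajc25 was well above background in all 8 channels, but its only spot carried an outlier flag. No fold is given for these 5 genes. Hspa1a, the twin of Hspa1b, was not found by name on the array. Levels below are log2 values centred on the median of each channel, so they compare channels within a gene and not genes with each other.

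Among the tested members 1 was called between labels, Dnajc5, which was lower in the ONC channels. A gene was called at an adjusted p under 0.05 by limma, adjusted over all genes. The call covered 1 of 63 members, against 0.497% of all genes tested, and 81 genes were called in all. With the array number as a block, 7 members were called, all lower in ONC: Dnajc5, Dnajc16, Dnajc24, Dnajc4, Dnajc3, Dnajc18 and Hspb1. They stand beside 7.69% of all genes called with the block in either direction and 4.61% called as lower in ONC. At an unadjusted p under 0.05 there were 14 members, 5 higher and 9 lower, or 22.2% against 18.6% of all genes. Without CTR2 and ONC4, 3 members were called (Hspb1, Dnajc16 and Hspa1b), all lower in ONC, against 2.54% of all genes. With median scaling and no loess, 11 members were called, 5 higher and 6 lower, or 17.5% against 19.6% of all genes. The criterion of the methods, made of the methods' t-test together with a fold-change cut-off set by the variability of each gene, was met by 4 members (Dnajc16, Dnajc24, Dnajc4 and Dnajc5), against 3.13% of all genes, and by 0 genes after Benjamini-Hochberg adjustment of that test. With p and fold both taken from gene values, Dnajb3, higher in ONC, met it as a 5th member.

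The members as a whole lay close to the rest of the array. Their median log2 fold change was -0.023, beside -0.013 over all genes, with 27 members higher and 36 lower in ONC. The extremes were -0.74 for Hspb1 and 0.35 for Dnajb9. The change was under 0.2 in size for 42 of 63 members, or 66.7%, as it was for 65.3% of all genes. All 4 ONC channels lay above all 4 CTR channels for 5 members, or 7.94%, against 5.76% of all genes, and below them for 7 members, against 6.92%. Without CTR2 and ONC4 the median of the members was -0.12, beside -0.064 over all genes, with 23 members higher and 40 lower and 19 at an unadjusted p under 0.05, or 30.2% against 23.8% of all genes.

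**Figure D1:**
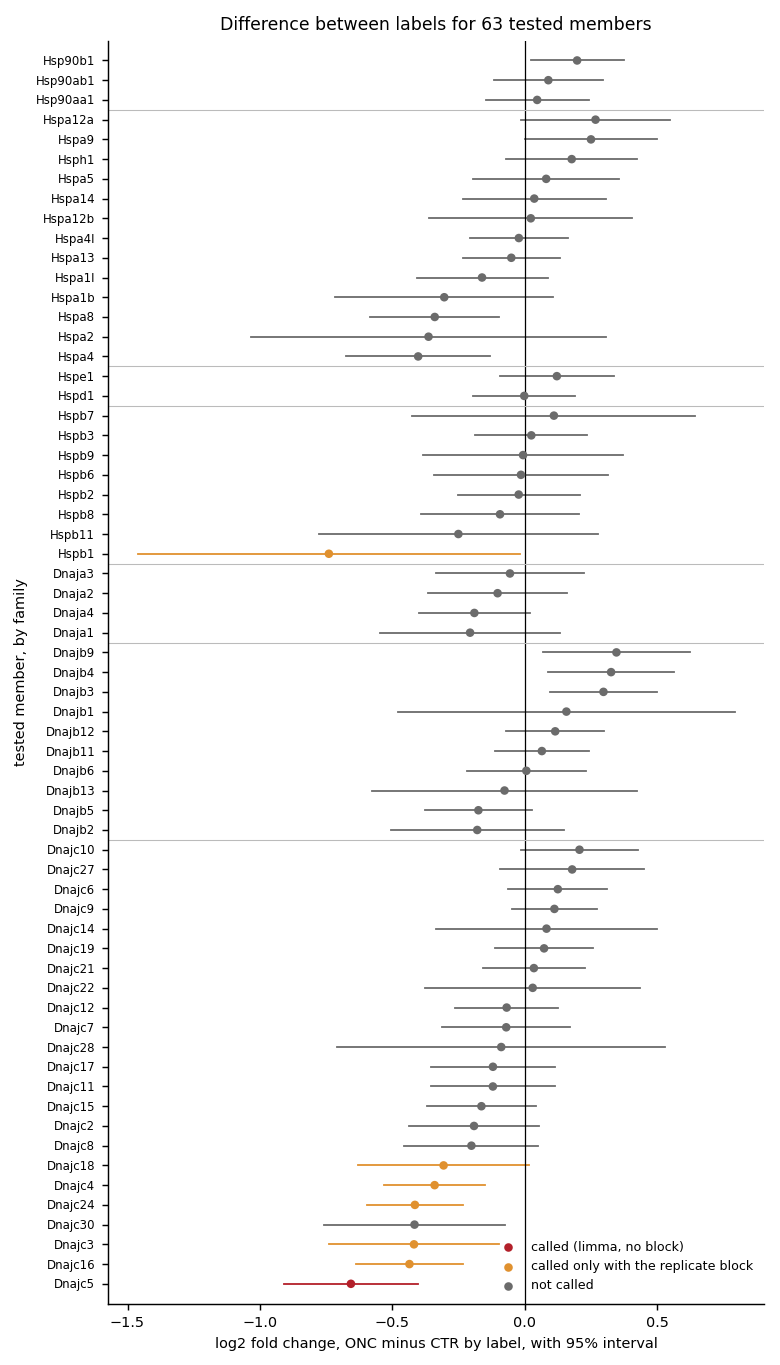
Log2 fold change of each of the 63 tested members, ONC minus CTR by label, with its 95% interval from limma (horizontal bars), grouped by family. Dnajc5 at -0.66 is the called member, and the 6 further members called with the replicate block also lie to the left, from Hspb1 at -0.74 to Dnajc18 at -0.31.

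Dnajc5 encodes the cysteine string protein, a co-chaperone on synaptic vesicles that guards presynaptic SNARE proteins with Hsc70. Its log2 level was 0.68, 0.58, 0.96 and 0.50 in the CTR channels and -0.05, 0.12, 0.08 and -0.06 in the ONC channels. Every ONC channel lay below every CTR channel, and CTR2 and ONC4 lay with the other channels of their label. The group levels were 0.68 ± 0.20 (SD, n = 4) in CTR and 0.02 ± 0.09 (SD, n = 4) in ONC, and the gap between labels exceeds the spread of either group. The log2 fold change was -0.66 (standard error 0.11, 95% interval -0.91 to -0.40, adjusted p = 0.0483 by limma), or 1.58-fold lower in ONC. In RNA of a whole tissue, fewer cells of a type and less RNA per cell cannot be told apart. By the labels the CTR channels are all Cy5 and the ONC channels all Cy3. A gene that sorts by label thus sorts by dye as well, and the 2 cannot be told apart here. The call ended without any single channel, at adjusted p from 0.0669 to 0.178, and without CTR2 and ONC4 together, at -0.66 with an adjusted p of 0.0534. It ended as well with normexp background, with processed signals and in the 4 channels whose dye is the same by labels and methods (CTR2, CTR4, ONC1 and ONC3), at adjusted p up to 0.384. With the replicate block the adjusted p was 0.0290. The measurement rests on 1 spot per array. Its probe lies on chr3:170685794-170685853 (plus strand, rn4 build of the array design), and it is shown because it carries the only call.
Dnajc5 probe: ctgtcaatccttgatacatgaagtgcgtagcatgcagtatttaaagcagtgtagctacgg

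The next members by strength of evidence were also of the DnaJ C group, whose members share the J domain and little else. Of its 23 tested members, 8 were higher and 15 lower in ONC. An unadjusted p under 0.05 was found for 6, all lower, or 26.1% against 18.6% of all genes. Without overlap, 1 lay higher (Dnajc9, at a log2 fold change of 0.11), or 4.35% against 5.76% of all genes. The 5 that lay lower were 21.7%, against 6.92%. The largest rise of a gene mean was 0.21, for Dnajc10. Among the 3 probes of Dnajc14, 1 was at 0.54 (adjusted p = 0.0580 by limma over probes). The other 2 were at -0.29 and -3.8e-05, and the gene mean was 0.082. Dnajc16 was at -0.15, -0.35, -0.12 and -0.09 in the CTR channels and -0.52, -0.74, -0.60 and -0.59 in the ONC channels. Its change of -0.44 on the log2 scale (standard error 0.09, adjusted p = 0.0623) was called with the replicate block (adjusted p = 0.0304) and without CTR2 and ONC4 (-0.50, adjusted p = 0.0475). Dnajc24, which takes part in making diphthamide on elongation factor 2, was at 0.84, 0.66, 0.62 and 0.75 in CTR and 0.26, 0.36, 0.29 and 0.30 in ONC. Its log2 fold change was -0.42 (standard error 0.08, adjusted p = 0.0575, with the block 0.0367), and it ran from -0.45 to -0.22 over its alternatives. The groups did not overlap for either gene, nor for Dnajc4, which ran from 0.89 to 1.13 in CTR and from 0.59 to 0.72 in ONC (log2 fold change -0.34, adjusted p = 0.0883, with the block 0.0430).

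The groups did overlap for the 2 other DnaJ C members that the block brought in. Dnajc3, an endoplasmic reticulum co-chaperone known to restrain the eIF2 alpha kinases, was at -0.37, -0.31, -0.01 and 0.18 in CTR and -0.59, -0.69, -0.58 and -0.31 in ONC. It was lower in ONC on 4 of 4 arrays, at a log2 fold change of -0.42 (adjusted p = 0.166, with the block 0.0391). Dnajc18 was at -2.02, -2.33, -1.87 and -1.90 in CTR and -2.31, -2.65, -2.27 and -2.12 in ONC, with a log2 fold change of -0.31 (adjusted p = 0.292, with the block 0.0458) that shrank to -0.097 without loess. In both genes the channels of one array tended to lie high or low together, which is what a block removes. Dnajc30, a mitochondrial member, ran from -3.07 to -2.84 in CTR and from -3.76 to -3.08 in ONC (log2 fold change -0.42, adjusted p = 0.186). That direction turned to 0.075 when channels were only scaled to their median without loess. The only Dnajc30 probe was dim, with a foreground of 2.98 to 4.71 times the background.

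**Figure D2:**
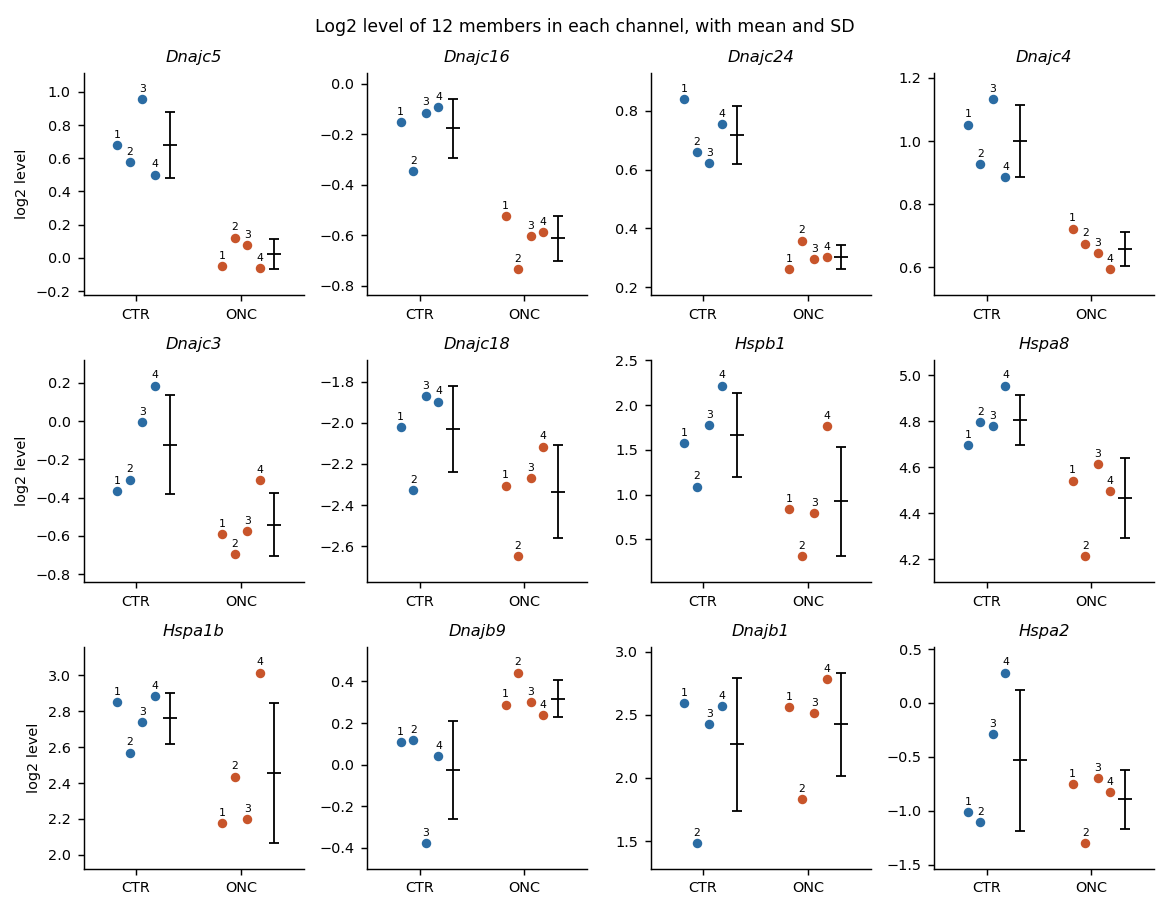
Log2 level of 12 members in each channel (points, numbered by replicate), with the mean and SD of the 4 CTR (blue) and 4 ONC (orange) channels as bars beside them, each panel with its own axis that does not start at 0. For Dnajc5, Dnajc16, Dnajc24 and Dnajc4 the labels do not overlap, while Hspb1 and Hspa1b are high in ONC4 and Dnajb1 is low in both channels numbered 2.

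Hspb1 encodes Hsp27, a small heat shock protein that binds unfolding proteins and actin. It varied more than any other tested member, with an SD of 0.64 over the 8 channels. Its log2 level was 1.58, 1.09, 1.78 and 2.22 in the CTR channels and 0.84, 0.31, 0.79 and 1.76 in the ONC channels. The groups overlapped, with ONC4 above CTR1 and CTR2, but on each of the 4 arrays the ONC channel was the lower one. The log2 fold change was -0.74 (standard error 0.32, 95% interval -1.46 to -0.02, adjusted p = 0.261 by limma). It was called with the replicate block (adjusted p = 0.0290), and without CTR2 and ONC4 it was -1.21 (standard error 0.21, adjusted p = 0.0384). These 2 channels were set aside for their ganglion cell markers, and they held the lowest CTR and the highest ONC value of Hspb1. The call without them is thus not independent of that choice. The Hspb1 probe lies on chr12:21911494-21911664 (minus strand, rn4) and is shown because this member had the largest change in size in the main fit.
Hspb1 probe: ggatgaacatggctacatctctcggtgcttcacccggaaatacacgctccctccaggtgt

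Markers of cell types moved over the same channels. Less its own mean, Hspb1 was above 0 in CTR1, CTR3, CTR4 and ONC4, the channels in which the ganglion cell markers were low. Of 12 ganglion cell markers listed, 10 were tested, 10 were higher in ONC and 1 was called (Isl1, at 0.64, which bipolar and amacrine cells express too). Their summed level, in multiples of the channel median, was 11.4, 37.5, 12.7 and 16.2 in the CTR channels and 40.8, 42.3, 41.0 and 13.1 in the ONC channels. Pou4f1 was not found by name, and Pou4f3 did not pass the spot filter. Of 10 markers of Müller glia and astrocytes 9 were tested, with a median of 0.05, -0.06, 0.22 and 0.19 in the CTR channels and -0.14, -0.28, -0.09 and 0.09 in the ONC channels. Their summed level was 282, 230, 275 and 232 in CTR and 235, 203, 243 and 260 in ONC. Dkk3 and Apoe, at log2 levels of 7.17 and 6.67 in CTR1, weighed most in this sum, ahead of Glul at 4.18. Kcnj10 was not well above background in any channel. All 12 microglial and macrophage markers were tested, with a median of 0.14, -0.41, 0.57 and 0.56 in CTR and -0.32, -0.11, -0.40 and -0.06 in ONC and a summed level of 14.9, 12.1, 27.4 and 25.7 in CTR and 10.7, 15.6, 12.5 and 16.3 in ONC. What part any of these cells had in the level of Hspb1 was not tested.

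**Figure D3:**
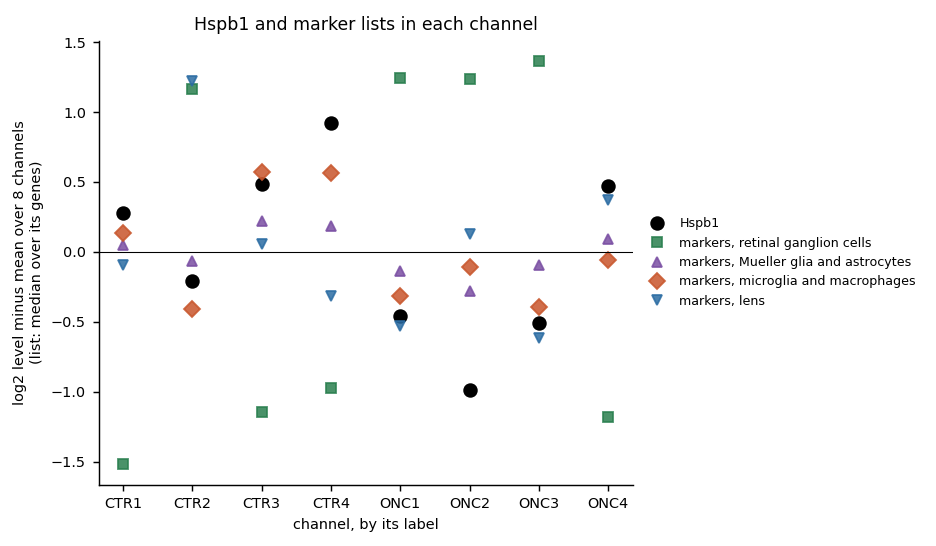
Log2 level of Hspb1 (black circles) and the median of 4 marker lists (other symbols) in each channel, every gene less its own mean over the 8 channels. Hspb1 lies above 0 in CTR1, CTR3, CTR4 and ONC4, where the ganglion cell markers lie between -1.52 and -0.97.

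The other marker lists gave 0 called genes by limma. With the block, 7.69% of all genes were called in either direction and 4.61% as lower in ONC. Over the 13 tested rod and cone markers the median log2 fold change was -0.28, and 4 were called with the block, all lower in ONC. It was -0.23 for glia (2 called with the block, both lower), 0.18 for the 13 bipolar and amacrine markers (1, lower), -0.38 for microglia (0) and -0.37 for the 12 lens markers (0), whose median stood at 1.22 in CTR2 alone. The median was 0.083 for 5 blood markers, 0.024 for 8 of endothelium and pericytes, 0.019 for 15 of muscle and 0.19 for 5 of pigment epithelium, with 0 called by either fit. Of 14 immediate early genes, 4 were called with the block, 2 in each direction, around a median of -0.13. An unadjusted p under 0.05 was found for 18.6% of all genes. In these lists it was found for 4 of 13 rod and cone, 2 of 9 glial, 5 of 13 bipolar and amacrine and 4 of 12 microglial markers. For muscle, pigment epithelium and immediate early genes the counts were 1 of 15, 1 of 5 and 5 of 14.

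Of the 13 tested members of the Hsp70 and Hsp110 family, 6 were higher and 7 lower in ONC, and 0 were called, with 3 at an unadjusted p under 0.05 (Hspa4, Hspa8 and Hspa9), or 23.1% against 18.6% of all genes. Hspa4, singled out after its values were seen, held CTR values of 3.57 to 4.07 and ONC values of 3.23 to 3.52. The groups did not overlap, and the change was -0.40 (log2, standard error 0.12, adjusted p = 0.130), called only without loess. Hspa8 encodes Hsc70, the constitutive Hsp70 that uncoats clathrin vesicles and works with Dnajc5. Its level was 4.70, 4.80, 4.78 and 4.95 in the CTR channels and 4.54, 4.21, 4.61 and 4.50 in the ONC channels, and the groups did not overlap. The change of -0.34 (log2, standard error 0.11, adjusted p = 0.147) reached a call only with median scaling and no loess, at -0.56 (adjusted p = 0.0133), where the alternatives spanned 0.0133 to 0.440. It is the mean of 4 probes, and all 4 were lower in ONC, by unequal amounts. The 2 probes at chr8:43785314-43785489 and chr8:43785470-43785529 (plus strand, rn4) were at -0.43 and -0.55, and the 2 farther along the gene, at chr8:43787204-43787517 and chr8:43787518-43787576, were at -0.11 and -0.27. The difference between probes was not tested. The first and the second share 20 bases, in capitals, and so do not measure independent stretches.
Hspa8 first probe: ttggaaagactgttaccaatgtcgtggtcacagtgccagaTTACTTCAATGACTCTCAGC
Hspa8 second probe: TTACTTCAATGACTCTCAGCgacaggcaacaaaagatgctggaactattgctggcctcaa
Hspa8 next probe: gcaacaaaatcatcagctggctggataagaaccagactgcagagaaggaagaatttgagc
Hspa8 last probe: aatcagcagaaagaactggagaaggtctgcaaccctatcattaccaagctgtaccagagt

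Hspa1b, the stress-inducible Hsp70, was at 2.85, 2.57, 2.74 and 2.88 in CTR and 2.18, 2.44, 2.20 and 3.02 in ONC. ONC4 held the highest of the 8 values and the other 3 ONC channels the lowest ones. The log2 fold change was -0.30 (standard error 0.18, adjusted p = 0.416), and without CTR2 and ONC4 it was -0.55 (standard error 0.11, adjusted p = 0.0493), the smallest adjusted p over its alternatives, which ran up to 1.0. Leaving these 2 channels out takes away the lowest CTR and the highest ONC value, so that call is not independent of the choice. Only 1 of the 2 Hspa1b probes gave these values, since the other was not well above background in any channel. Whether the probe that gave them also reads Hspa1a was not tested. Hspa2, an Hsp70 best known from testis, spread widely among the CTR channels, at -1.01, -1.11, -0.29 and 0.28, while the ONC channels held -0.76, -1.30, -0.70 and -0.83. Its change of -0.36 (log2, standard error 0.30, adjusted p = 0.565) was within that spread, and it ran from -0.56 to -0.092 without each channel in turn.

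The organelle members of the family did not pass the test in either direction. Hspa5, the BiP chaperone of the endoplasmic reticulum, was at 3.97 ± 0.23 (SD, n = 4) in CTR and 4.05 ± 0.10 (SD, n = 4) in ONC, and its log2 fold change of 0.080 (adjusted p = 0.785) became -0.044 without loess. Hspa9, the mitochondrial Hsp70 mortalin, was higher in ONC on 4 of 4 arrays, at 0.24 ± 0.20 (SD, n = 4) against 0.49 ± 0.07 (SD, n = 4), with a log2 fold change of 0.25 (adjusted p = 0.267). Hspa12a, a distant relative of Hsp70, was likewise higher on 4 of 4 arrays, by a log2 fold of 0.27 (adjusted p = 0.294). Hsph1, the Hsp110 that recharges Hsp70 with ATP, stood at a log2 fold change of 0.18 (adjusted p = 0.433), and of 0.090 without CTR3.

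The 2 cytosolic Hsp90 genes lay close together in the 2 groups of channels. Hsp90aa1, the inducible cytosolic form, was at 4.86 ± 0.08 (SD, n = 4) in CTR and 4.91 ± 0.10 (SD, n = 4) in ONC, and the constitutive Hsp90ab1 at 2.42 ± 0.12 (SD, n = 4) and 2.50 ± 0.10 (SD, n = 4). Their log2 fold changes were 0.046 (adjusted p = 0.831, 95% interval -0.15 to 0.24) and 0.089 (adjusted p = 0.656, 95% interval -0.12 to 0.29). The sign of Hsp90aa1 turned without loess, at -0.16, and its 3 probes ran from -0.15 to 0.20. Hsp90b1, the endoplasmic reticulum form, did not overlap between groups, at 3.17, 3.12, 3.11 and 3.18 in CTR and 3.41, 3.33, 3.41 and 3.22 in ONC, but the log2 fold change of 0.20 (standard error 0.08) had an adjusted p of 0.222. The mitochondrial chaperonin pair had log2 fold changes of -0.0024 for Hspd1 (Hsp60, adjusted p = 0.992, 95% interval -0.20 to 0.19) and 0.12 for Hspe1 (Hsp10, adjusted p = 0.548), whose 2 probes were at 0.28 and -0.038. The sign of Hspe1 turned without loess, at -0.0037, and that of Hspd1 with processed signals, at 0.077.

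Of the 8 tested members with an Hspb symbol, 2 were higher and 6 lower in ONC. Hspb1 was the 1 with an unadjusted p under 0.05, or 12.5% against 18.6% of all genes. Scaled to the median without loess, 4 were higher and 4 lower. Hspb3 alone was called there, 1 of 8 or 12.5%, against 19.6% of all genes. The alpha crystallins Cryaa and Cryab lack such a symbol and are counted below with the genes that work with these chaperones. Both were lower in ONC on 4 of 4 arrays, at log2 fold changes of -0.95 (adjusted p = 0.134 by limma) and -0.47 (adjusted p = 0.242 by limma). Hspb8, which works with Bag3 in clearing misfolded proteins, was at -3.05 ± 0.18 (SD, n = 4) in CTR and -3.14 ± 0.21 (SD, n = 4) in ONC, with a log2 fold change of -0.094 (adjusted p = 0.764) that became 0.38 without loess. The only Hspb8 probe was dim, with a foreground of 2.61 to 6.19 times the background.

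Among the DnaJ proteins of types A and B, 0 were called by limma, and 3 of 14 had an unadjusted p under 0.05: Dnajb9, Dnajb4 and Dnajb3, all higher in ONC without overlap, beside 18.6% of all genes at such a p and 5.76% without overlap in that direction. Dnajb9, an endoplasmic reticulum co-chaperone of BiP, was at 0.11, 0.12, -0.38 and 0.04 in CTR and 0.29, 0.44, 0.30 and 0.24 in ONC, a change of 0.35 (log2, standard error 0.12, adjusted p = 0.180). Dnajb4 had CTR values of -2.30 to -1.88 and ONC values of -1.84 to -1.80 (log2 fold change 0.33, adjusted p = 0.150). Dnajb3 had CTR values of -1.57 to -1.25 and ONC values of -1.11 to -1.03 (log2 fold change 0.30, adjusted p = 0.132). Without loess, Dnajb4 was called at 0.51 (adjusted p = 0.0186) and Dnajb3 at 0.38 (adjusted p = 0.0219), and over their alternatives the adjusted p ran up to 0.571 and 0.472. With processed signals Dnajb4 was at 0.14.

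Dnajb1, the main DnaJ partner of inducible Hsp70, differed by array more than by label. It was at 2.59, 1.48, 2.42 and 2.57 in the CTR channels and at 2.56, 1.83, 2.51 and 2.78 in the ONC channels, so that both channels of array 2 were the lowest. Its log2 fold change was 0.16 (standard error 0.28, adjusted p = 0.824), and without CTR2 and ONC4 it was -0.22. In the 4 channels whose dye is the same by labels and methods it was 0.51. Dnaja1, a DnaJ partner of Hsc70, stood at a log2 fold change of -0.21 (adjusted p = 0.514), lower on 4 of 4 arrays. It was -0.098 without ONC2 and -0.36 without CTR2 and ONC4. Dnajb6, known to hold back protein aggregation, was at a log2 fold change of 0.0056 (adjusted p = 0.983, 95% interval -0.22 to 0.23), with the sign turned without loess at -0.016. Dnajc28 was among the 4 most variable members, with an SD of 0.43 over the 8 channels, at -2.68, -2.31, -1.97 and -1.90 in CTR and -3.09, -2.16, -2.13 and -1.83 in ONC. Its log2 fold change was -0.089 (adjusted p = 0.903), and it turned to 0.15 without loess. Over its alternatives it ran from -0.50 to 0.17.

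**Figure D4:**
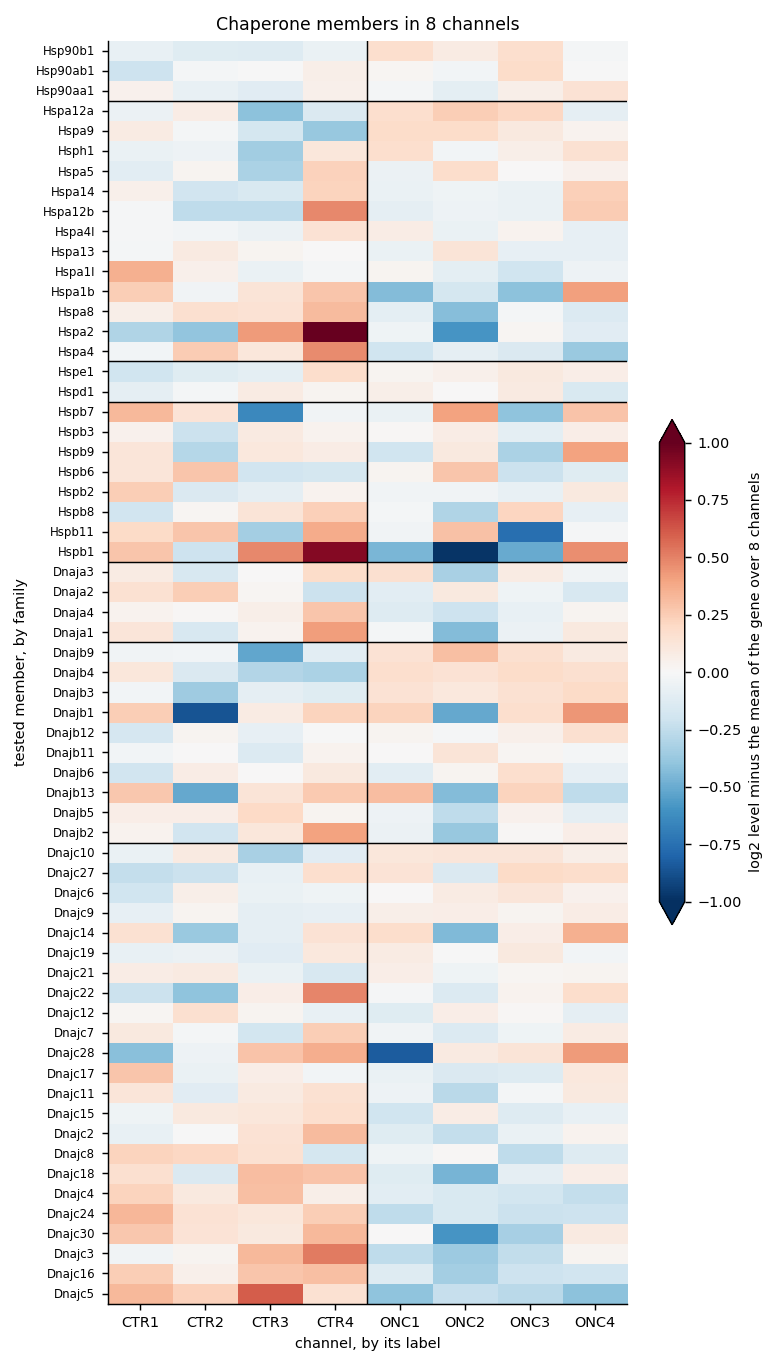
Log2 level of the 63 tested members in each channel, every gene less its own mean over the 8 channels (colour, capped at -1 and 1), set by family and within a family from the highest to the lowest fold change. Dnajc16 and Dnajc5 at the foot are red in all 4 CTR and blue in all 4 ONC channels, and Dnajb1 is blue in CTR2 and ONC2.

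The median SD of the members over the 8 channels was 0.18 on the log2 scale, beside 0.20 for all genes, and 4 members (Hspb1, Hspa2, Dnajb1 and Dnajc28) were among the tenth of all genes with the largest SD. The methods measure the spread within a group by the relative expression variability (REV), a coefficient of variation pooled over the spots of a gene and corrected for their number. Its median over the members was 19.98% in CTR and 15.6% in ONC, beside 25.1% and 21.7% over all genes. The ONC value exceeded the CTR one for 19 of 63 members, or 30.2%, against 41.5% of all genes. It was under 10% in CTR for 5 members, or 7.94% against 6.83% of all genes, and in ONC for 12, or 19.0% against 13.1%, with 3 of them in both. Hspa2 had the highest REV in CTR, at 100% against 37.5% in ONC, and Hspb1 the highest in ONC, at 98.7% against 68.5%.

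**Figure D5:**
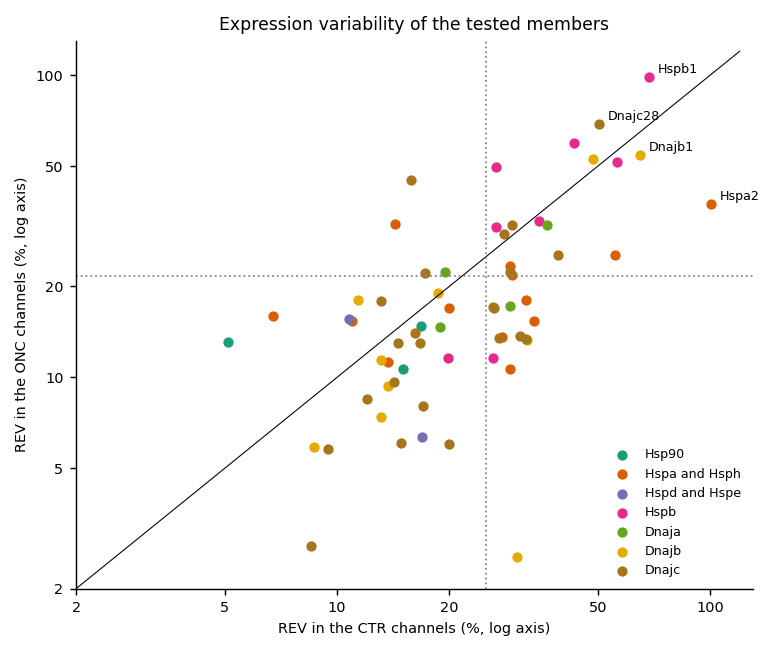
REV of the 63 tested members in the CTR channels (x axis) and the ONC channels (y axis), both in percent on log axes, coloured by family. Dotted lines mark the medians of all genes, 25.1% and 21.7%, the diagonal marks equal REV, and 19 members lie above it.

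Probes of one gene did not always move together. Of the 9 members with more than 1 tested probe, 5 had probes of both signs. Dnajc14 had the widest range, from -0.29 to 0.54 over 3 probes, followed by Dnajc17 from -0.39 to 0.12, whose lowest probe is placed on chromosome 6 by the array annotation and the other 2 on chromosome 3. These genes were picked for this range after their values were seen.

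The genes that work with these chaperones were counted in the same way, and the difference from the members was not tested. Of 80 companion genes in 5 lists, 74 were tested and 0 were called by limma, with 18 at an unadjusted p under 0.05, 9 in each direction, or 24.3% against 18.6% of all genes. With the replicate block 6 were called, 3 higher and 3 lower in ONC, or 8.11% of those tested against 7.69% of all genes. Of the 27 tested co-chaperones of Hsp90 and Hsp70, these were Bag5 at 0.39 (adjusted p = 0.0405 with the block) and Ppp5c, a phosphatase that binds Hsp90, at -0.56 (adjusted p = 0.0335 with the block). Of the 12 tested subunits of the TRiC chaperonin and prefoldin, it was Cct2 at -0.42 (adjusted p = 0.0334 with the block). Of 21 endoplasmic reticulum chaperones and stress factors, Hyou1, an Hsp70 relative of the reticulum, was at 0.39 (adjusted p = 0.0383 with the block), the disulfide isomerase Pdia4 at 0.43 (adjusted p = 0.0414 with the block) and Creld2 at -0.42 (adjusted p = 0.0383 with the block). None of the 8 mitochondrial partners and proteases, nor of the 6 heat shock factors and alpha crystallins, was called by limma in either fit, with 1 and 3 at an unadjusted p under 0.05.

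Heat shock factors bind repeats of GAA in alternating orientation. The letters GAANNTTC or TTCNNGAA, each its own reverse complement, were sought in RefSeq promoters (GRCr8), which reach from 250 bases before to 50 bases after the start of a gene. Of the 68 members, 53 were found there by symbol. The other 15, Hsp90aa1, Hspa1b and Dnajb4 among them, were not and were left out. Of the 53 promoters, 16, or 30.2%, held at least 1 match, beside 15.9% of all 33465 promoters. The longer element, with 3 such units, was in 5 member promoters, or 9.43%, beside 0.798% of all. The 5 belonged to Dnaja1, Hspa8, Hspd1, Hspe1 and Hsph1, and the windows of Hspd1 and Hspe1, on opposite strands, share 211 bases. In the fit, 0 of these 5 genes were called with or without the block, beside 0.497% of all genes without it and 7.69% with it. At such shares a count over 5 genes cannot set them apart from other genes. Dnajc5 had no match in its promoter. A match is a string of letters and not a shown site. The promoters of Hspa8 (chr8:50080264-50080563, plus strand), Hspe1 (chr9:64084077-64084376, plus strand) and Hspb1 (chr12:26432252-26432551, minus strand) are shown, all in GRCr8, to set the longer element beside the short one of the most variable member. Capitals mark the matches to either short motif.
Hspa8 promoter: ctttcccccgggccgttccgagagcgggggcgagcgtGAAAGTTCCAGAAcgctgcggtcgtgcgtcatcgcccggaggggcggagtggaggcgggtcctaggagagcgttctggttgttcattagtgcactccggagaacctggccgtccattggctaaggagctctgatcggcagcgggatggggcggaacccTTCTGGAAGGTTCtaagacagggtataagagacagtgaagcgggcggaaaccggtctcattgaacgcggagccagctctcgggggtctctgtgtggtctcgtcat
Hspe1 promoter: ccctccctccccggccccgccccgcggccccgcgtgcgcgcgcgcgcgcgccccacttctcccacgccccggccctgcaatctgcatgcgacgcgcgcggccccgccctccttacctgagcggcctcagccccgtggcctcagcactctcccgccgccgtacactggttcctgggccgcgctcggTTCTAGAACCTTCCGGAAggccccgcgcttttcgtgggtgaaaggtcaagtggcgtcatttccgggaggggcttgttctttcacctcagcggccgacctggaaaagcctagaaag
Hspb1 promoter: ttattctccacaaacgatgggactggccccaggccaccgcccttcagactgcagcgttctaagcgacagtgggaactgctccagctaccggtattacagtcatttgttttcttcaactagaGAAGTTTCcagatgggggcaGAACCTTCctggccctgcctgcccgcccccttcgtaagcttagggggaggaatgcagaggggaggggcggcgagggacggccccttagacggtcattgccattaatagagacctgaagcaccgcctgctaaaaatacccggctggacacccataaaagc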

How the data were processed

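RNA of 8 single retinas, 4 CTR and 4 ONC, was hybridized on 4 two-colour arrays. For each spot, the intensity deposited is that written by Agilent Feature Extraction (version 12.0.3.1 in the file headers, 11.1.19.1 in the submitters' processing notes): the foreground mean, the median local background, a processed signal dye-normalized with LOWESS, and other flags per spot. Each sample was read from the channel its label gives. Median foreground over median background ran from 447 over 55.0 to 626 over 56.5 in the CTR channels and from 218 over 26.0 to 495 over 29.5 in the ONC channels. The number of arrays limits the precision, and no spot was saturated.

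Control spots, spots with an outlier flag and spots under 2 times the background in any channel were left out, which kept 27371 spots and 18599 probes. Background was subtracted, arrays were normalized by loess, channels were centred on their median, and log2 values were averaged from spots to probes to genes. With limma 3.58.1 in R 4.3.3, moderated two-sided tests (lmFit, then eBayes; adjustment by Benjamini-Hochberg over all genes) compared ONC with CTR without a block. Channels of the same number share an array by the labels, and their deviations from the group means correlated over genes at 0.149, 0.549, 0.401 and 0.487 on the 4 arrays, so the fit with the replicate block is given beside results it changes. For the criterion of the methods, the t-test was run on the gene values and the fold taken from spot means. The text of the methods allows other readings, which were tried first and change the counts of genes and members. The reading used was settled on with the count of an earlier description known. The fit was tested on simulated data with independent noise in each channel, which leaves out the correlation between channels of one array. Named were a set of members chosen by role, the members called in either fit, the 5 largest rises and 5 largest falls with the same sign on 4 arrays, the 4 members with the largest SD, and companion genes called in either fit. The members and lists were chosen with earlier results of these data known. Array annotation is on rn4, and RefSeq promoters on GRCr8. Python 3.11.15 searched them, and figures were drawn with matplotlib 3.10.9.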

Additional observations from a re-analysis of the deposited data

Results flagged for a closer look

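In each of 56 groups of 4 channels (28 named members in 2 groups), the gap of the highest or lowest channel to its neighbour was set against the range of the group. Chance marks about 1 group in 20 this way, so some marks are to be looked for among so many. The log2 level of Dnajb1 in CTR2, at 1.48, was far below the other CTR channels, which lay between 2.42 and 2.59. ONC2, on the same array, was the lowest ONC channel of this gene, at 1.83. The log2 level of Dnajb9 in CTR3, at -0.38, was far below the other CTR channels, between 0.04 and 0.12. Without CTR3 the log2 fold change of Dnajb9 was 0.23. Both genes rest on 1 probe with 1 spot per array, and the cause was not tested.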

How the results depend on the processing

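Dnajc5 was called in 5 of 18 alternatives, and its log2 fold change ran from -0.72 to -0.49 over all alternatives. Against 81 genes and 1 member called by limma, the counts were 1254 and 7 with the replicate block, 3194 and 11 with median scaling without loess, 408 and 3 with Aquantile between arrays, 14 and 0 with normexp background, 0 and 0 with normexp background and no filter on dim spots together (1957 genes at an unadjusted p under 0.05), 21 and 0 with processed signals, 0 and 0 in the 4 channels of undisputed dye (1961 genes at an unadjusted p under 0.05), 415 and 3 without CTR2 and ONC4, 510 and 4 by the criterion of the methods (536 and 4 with p and fold from spot means, 503 and 5 from gene values, readings chosen after seeing the data), and 0 and 0 by that criterion after adjustment. The flag as filter gave 123 genes and the brightest probe 124. Leaving out each replicate in turn gave 0 to 38 genes (2085 to 3252 at an unadjusted p under 0.05) and 0 to 0 members. Of the companions, 11 were called without loess, 6 with the block, 1 with Aquantile (Hyou1) and 1 without CTR2 and ONC4 (Hsf4). The median of the members was -0.059 with processed signals, -0.12 without CTR2 and ONC4, and -0.075 to -0.0012 without each replicate. Without loess 71.0% of called genes were higher in ONC, beside 46.9% with it.

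Among the 28 named members, the log2 fold changes that changed sign were, without loess, Dnajb6 -0.016, Dnajc28 0.15, Dnajc30 0.075, Hsp90aa1 -0.16, Hspa5 -0.044, Hspb8 0.38 and Hspe1 -0.0037. With processed signals they were Dnajb6 -0.059, Hspa5 -0.0074 and Hspd1 0.077, and in the 4 channels of undisputed dye Dnajb6 -0.053, Hspa5 -0.16 and Hspd1 0.067. With normexp background and no filter on dim spots together Hspd1 was 0.033. Without CTR2 and ONC4 they were Dnajb1 -0.22, Hsp90aa1 -0.011 and Hspd1 0.042. Without each replicate in turn the range was -0.10 to 0.35 for Dnajb1, -0.056 to 0.041 for Dnajb6, -0.25 to 0.17 for Dnajc28, -0.011 to 0.17 for Hspa5 and -0.032 to 0.049 for Hspd1. Without a change of sign it was -0.29 to -0.098 for Dnaja1, -0.56 to -0.092 for Hspa2, 0.090 to 0.24 for Hsph1, -0.49 to -0.21 for Hspa1b, -0.41 to -0.20 for Dnajc18, 0.23 to 0.39 for Dnajb9, 0.17 to 0.32 for Hspa9, 0.18 to 0.34 for Hspa12a, 0.076 to 0.20 for Hspe1, 0.033 to 0.12 for Hsp90ab1, 0.0053 to 0.087 for Hsp90aa1 and -0.18 to -0.010 for Hspb8. The cause was not tested.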
